A study of Mus musculus with 16 samples.

Results

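The MiT transcription factors and the folliculin complex were followed in bone marrow derived mast cells (BMMCs) through 9 genes, Mitf, Tfe3, Tfeb, Tfec, Flcn, Fnip1, Fnip2, Rragc and Rragd, out of 39179 genes counted. The set was chosen from earlier results on these samples, in which Tfe3 had been seen to rise with antigen in both genotypes, so the antigen response without dexamethasone (DEX) is given as a description with no test. The BMMCs came from the bone marrow of male C57BL/6 mice aged 8 to 10 weeks, kept for 4 weeks in medium with stem cell factor and interleukin 3, and were either PEP+/+ or PEP-/-, the latter lacking PEST-domain-enriched tyrosine phosphatase, the product of Ptpn22. In each genotype the cells received IgE alone (0.05 µg/ml for 3 h by the sample labels, while the text of the study gives a higher dose), IgE and then the antigen dinitrophenol (DNP, 200 ng/ml for 1 h), DEX, a synthetic glucocorticoid (100 nM for 8 h), with IgE, or DEX with IgE and DNP. These conditions are called IgE, IgE DNP, IgE DEX and IgE DNP DEX. IgE alone gives sensitized cells, DNP after IgE gives activated cells, and all 16 samples carried IgE, so no untreated cells were measured. Each of the 8 conditions had 2 samples, 1 from a set titled with numbers and 1 from a set titled with letters, here replicate 1 and replicate 2. The study calls its replicates biological, but the number of mice or cultures behind a sample was not given, so p-values measure the spread between these samples, which may be partly technical. BMMCs are a cultured mixture in which mast cells prevail, and in such bulk samples fewer cells of a type and less RNA per cell cannot be told apart.

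MITF, TFE3, TFEB and TFEC are basic helix-loop-helix leucine zipper factors that bind DNA as dimers at E-boxes with the core CACGTG. MITF is needed for mast cell development, and TFEB and TFE3 drive genes of lysosomes and autophagy. When nutrients are plentiful, mTORC1 on the lysosome phosphorylates these factors and 14-3-3 proteins hold them in the cytoplasm. The step depends on the small GTPases RagC and RagD, the products of Rragc and Rragd, whose switch to the GDP form is made by folliculin (Flcn) together with its partners FNIP1 or FNIP2. TFEB and TFE3 are in turn known to act on the genes of Flcn, Fnip1, Rragc and Rragd in other cells.

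Promoters are shown for the members that the antigen results turn on, Tfe3, Fnip1, Flcn and Mitf, and for Rragc, the other member with an E-box. RefSeq (GRCm38.p6) held 14 starts for all 9 genes, and the 250 bases before each start were searched on both strands for 6 motifs, namely the core of the CLEAR element TCACGTGA, the E-box CACGTG that lies within it, the M-box TCATGTG, the cAMP response element TGACGTCA, the AP-1 site TGANTCA and the core of the glucocorticoid receptor element ACANNNTGT. In the lines that follow, each read 5′ to 3′ on the gene's strand, capitals mark the motif matches. The Tfe3 line stops at the first base of the gene in GENCODE M21, and the other stretches end at the base before the RefSeq start.
Fnip1, chr11:54437929-54438178 (+ strand), upstream of the gene: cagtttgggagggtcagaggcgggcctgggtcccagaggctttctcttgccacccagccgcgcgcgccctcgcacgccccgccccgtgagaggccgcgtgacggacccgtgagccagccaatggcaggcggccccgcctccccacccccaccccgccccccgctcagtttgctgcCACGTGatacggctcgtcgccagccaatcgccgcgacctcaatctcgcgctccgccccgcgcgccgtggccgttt
Rragc, chr4:123917183-123917432 (+ strand), upstream of the gene, over part of an exon of the antisense gene Gm12905: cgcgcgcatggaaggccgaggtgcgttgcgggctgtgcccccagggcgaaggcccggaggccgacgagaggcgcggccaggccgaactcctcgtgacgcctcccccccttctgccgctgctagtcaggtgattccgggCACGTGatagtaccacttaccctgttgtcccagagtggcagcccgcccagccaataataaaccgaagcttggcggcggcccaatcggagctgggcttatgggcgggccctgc
Flcn, chr11:59810040-59810289 (- strand), upstream of the gene, over an exon of the antisense gene Gm16062: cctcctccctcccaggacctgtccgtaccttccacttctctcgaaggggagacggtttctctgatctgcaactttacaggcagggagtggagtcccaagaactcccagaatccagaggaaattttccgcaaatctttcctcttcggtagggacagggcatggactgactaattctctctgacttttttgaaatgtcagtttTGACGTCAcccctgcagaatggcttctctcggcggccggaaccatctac
Mitf, chr6:97991533-97991782 (+ strand), before the third of 3 starts and in an intron of the longer transcripts: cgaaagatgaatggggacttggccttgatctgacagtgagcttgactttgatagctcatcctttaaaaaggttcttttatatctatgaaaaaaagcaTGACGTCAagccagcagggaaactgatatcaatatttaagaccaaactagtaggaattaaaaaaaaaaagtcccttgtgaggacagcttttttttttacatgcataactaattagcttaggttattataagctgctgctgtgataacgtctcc
Tfe3, chrX:7762411-7762559 (+ strand), before the first of 2 starts: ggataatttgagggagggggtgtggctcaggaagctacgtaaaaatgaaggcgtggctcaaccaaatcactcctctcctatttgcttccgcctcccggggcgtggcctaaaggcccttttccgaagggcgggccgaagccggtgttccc
CACGTG began 75 bases before the start of Fnip1 (position -75) and at position -112 of Rragc, and 6.02% of all 32851 promoters of this length held it. TGACGTCA began at position -49 of Flcn and -153 of the third Mitf start, against 1.55% of all promoters. The Mitf start shown was the only one of that gene with a match to any of the 6 motifs. Which Mitf start the BMMCs used was not measured. Neither Tfe3 promoter held any of the 6 motifs, and none of the 14 stretches held the CLEAR core, the M-box, the AP-1 site or the glucocorticoid receptor core, which stood in 0.79%, 3.25%, 6.75% and 5.84% of all promoters. These matches describe letters in a short window and no binding was measured.

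The libraries held 8612531 to 22143526 reads counted on genes (median 12814043.5). Ptpn22 lay between 0 and 3.03 CPM (the read count scaled to the library's total) in the 8 PEP-/- libraries and between 11.3 and 175 CPM in the 8 PEP+/+ libraries. Tsc22d3, a glucocorticoid-induced gene, lay between 43.9 and 134 CPM without DEX and between 725 and 1280 CPM with it, and Fkbp5, another such gene, between 72.5 and 124 and between 745 and 1080 CPM. All 8 mast cell markers were expressed in every library, with Kit at 1800 to 4680 CPM and Cpa3 at 31700 to 57900 CPM. Of 7 macrophage or monocyte markers 3 had a median over 1 CPM, led by Cx3cr1 and Ccr2, and their summed level was 122 to 299 CPM after IgE and 359 to 853 CPM after IgE DEX, 72.7 to 214 CPM after IgE DNP and 282 to 593 CPM after IgE DNP DEX, while the defining markers C1qa and Mertk had a median of 0. The basophil list, led by Cd200r3, summed to 519 to 581 CPM after IgE and 211 to 351 CPM after IgE DEX, and to 732 to 860 CPM after IgE DNP and 409 to 424 CPM after IgE DNP DEX. The eosinophil list summed to 11.4 to 18.8 CPM after IgE and 5.41 to 11.2 CPM after IgE DEX, with its defining marker Epx at 0 in every library, and the dendritic cell list to 4.92 to 14.7 and 2.23 to 6.48 CPM. The erythroid or megakaryocyte list summed to 1940 to 3920 CPM, nearly all of it Itga2b, and was higher in the lettered than in the numbered libraries in every treatment, while Pf4 had a median of 0. The low sums of the dendritic cell list were also higher in the lettered libraries in every treatment. Those of the neutrophil list were higher in the numbered ones. The part of these markers in the antigen, DEX and set differences given further on was not tested. Neutrophil markers summed to at most 2.37 CPM and B or T cell markers to at most 0.605 CPM.

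Of the 9 genes, 7 were abundant enough to be tested. Tfec, a family member of macrophages, had 1 read in all 16 libraries together. Tfeb had 89 reads in all, from 1 to 16 reads in a library, or 0.0652 to 0.72 CPM, and neither gene passed the filter on low counts, so a change in either was not detectable at this depth. To compare genes, levels were put on a per-length scale with the total exon length of each gene (RPKM, CPM divided by the length in kilobases). The mean RPKM over the 16 libraries was 54 ± 6.02 (SD) for Rragc, 25.3 ± 12 for Flcn, 25 ± 11 for Fnip1, 17.4 ± 5.17 for Mitf, 7.88 ± 2.55 for Tfe3, 5.22 ± 1.53 for Fnip2, 0.42 ± 0.248 for Rragd and 0.0696 ± 0.0344 for Tfeb. Neighbours in this order were not always apart. Rragc lay above Flcn in 14 of 16 libraries, Flcn above Fnip1 in 9, Fnip1 above Mitf in 9, Mitf above Tfe3 in 14 and Tfe3 above Fnip2 in 15. Fnip2 lay above Rragd and Rragd above Tfeb in all 16. Thus by mean RPKM Mitf was the highest and Tfe3 the next of the 4 MiT factors. Fnip1 lay above Fnip2 of the folliculin partners, and Rragc stood far above Rragd. The length counted every annotated exon of a gene, 9261 bases for Tfe3 and 6196 for Mitf. The transcripts in these cells may be shorter, and the order of Mitf and Tfe3 by RPKM need not hold then. The order of Mitf and Tfe3 depended on the length scale and the treatment. In CPM, Tfe3 (94.4 to 110) lay above Mitf (62.3 to 93.8) after IgE DNP. Mitf lay above Tfe3 after IgE and IgE DEX, and their ranges overlapped after IgE DNP DEX.

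**Figure D1:**
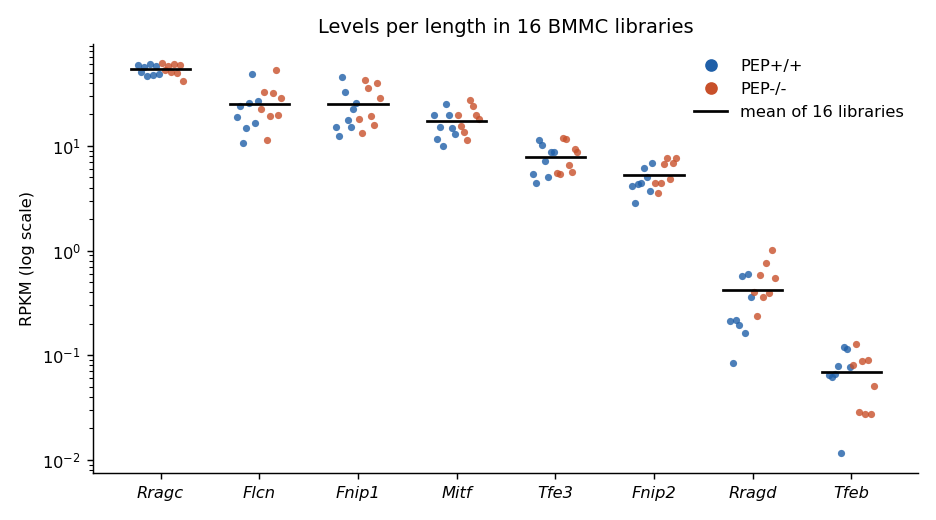
RPKM on a log axis for 8 members in 16 libraries, coloured by genotype, with the mean over the libraries as a line; Tfec, with 1 read in all, is left out. Mean levels fall from 54 for Rragc to 0.0696 for Tfeb, and Flcn, Fnip1 and Mitf overlap.

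Mitf has several promoters and isoforms, which counts per gene do not separate. Exons of Rragc overlap those of 4930535I16Rik on the other strand, which had 5 reads in all, and a processed pseudogene, Gm12902, which had 34 reads, lies within its span, against 39777 reads of Rragc itself.

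Antigen without DEX is the comparison from which the set was chosen, so its values are given without a test. Tfe3 was at 50.4 and 41.1 CPM in PEP+/+ IgE and at 106 and 94.4 CPM in PEP+/+ IgE DNP (replicate 1, then replicate 2, here and in what follows). In PEP-/- cells Tfe3 was at 51.5 and 49.6 CPM after IgE and at 110 and 108 CPM after IgE DNP. All 4 activated libraries lay above all 4 sensitized ones, by 1.12 ± 0.13 on the log2 scale (standard error, SE; average of the genotypes). Fnip1 was at 108 and 88.6 CPM in PEP+/+ IgE and at 321 and 231 CPM in PEP+/+ IgE DNP. PEP-/- cells had Fnip1 at 129 and 94.5 CPM after IgE and at 302 and 257 CPM after IgE DNP. Again the groups did not overlap, with a difference of 1.40 ± 0.18. The share of all genes whose groups did not overlap was not counted in any comparison, so such separations only describe these genes.

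Flcn, which encodes the partner of FNIP1, went the other way. Flcn was at 81 and 103 CPM in PEP+/+ IgE and at 46.5 and 64.5 CPM in PEP+/+ IgE DNP. In PEP-/- cells Flcn was at 96.4 and 142 CPM after IgE and at 49.5 and 83.2 CPM after IgE DNP. The 4 activated and 4 sensitized libraries overlapped, but within a genotype and set the activated library was lower in 4 of 4 differences, and the average difference was -0.79 ± 0.29 on the log2 scale. The average difference of Mitf was -0.40 ± 0.19, also lower in 4 of 4. That of Fnip2 was 0.40 ± 0.23, of Rragd 0.52 ± 0.49 and of Rragc -0.09 ± 0.16.

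By genotype, the difference with DNP without DEX was 1.13 ± 0.19 in PEP+/+ and 1.11 ± 0.19 in PEP-/- cells for Tfe3 (log2), and 1.49 ± 0.25 and 1.32 ± 0.25 for Fnip1. Whether it differed between genotypes is not tested here, since the set was chosen from these libraries for a rise in both genotypes. Of the 7 members abundant enough to be tested elsewhere, 4 had an average difference above 0, Tfe3, Fnip1, Fnip2 and Rragd.

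**Figure D2:**
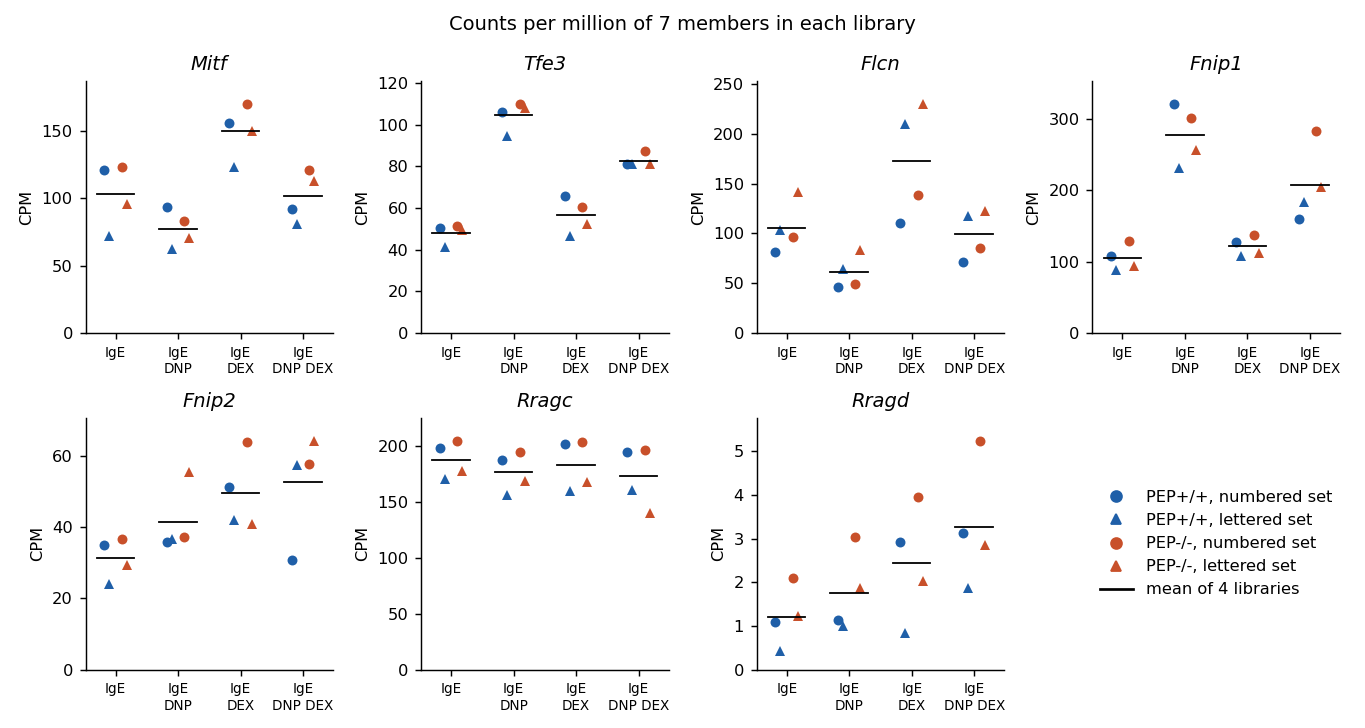
CPM of 7 members in each of 16 libraries by treatment, coloured by genotype, with circles for the numbered and triangles for the lettered set and a line at the mean of 4 libraries. The 4 IgE DNP libraries lie above the 4 IgE libraries for Tfe3 and Fnip1, and triangles lie above circles for Flcn.

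Antigen under DEX was compared in libraries other than those above, although earlier results of all 16 were known when the set was chosen. A rise of Tfe3 with antigen was the reason for the choice, so its p-values under DEX are not independent of that choice. Counts of members called for DNP under DEX that include Tfe3 carry the same limit. The test used throughout is edgeR's quasi-likelihood test with Benjamini-Hochberg adjustment over 13305 genes. Under DEX, Tfe3 and Fnip1 rose with DNP in the average of both genotypes, Tfe3 by 0.55 ± 0.13 on the log2 scale (adjusted p = 0.0202, edgeR) and Fnip1 by 0.76 ± 0.17 (adjusted p = 0.016, edgeR). Tfe3 was at 66 and 46.7 CPM in PEP+/+ IgE DEX and at 81.2 and 81.3 CPM in PEP+/+ IgE DNP DEX. PEP-/- cells had Tfe3 at 60.7 and 52.5 CPM after IgE DEX and at 87.4 and 81.1 CPM after IgE DNP DEX. Every IgE DNP DEX library lay above every IgE DEX library. Fnip1 was at 127 and 108 CPM in PEP+/+ IgE DEX and at 160 and 183 CPM in PEP+/+ IgE DNP DEX. In PEP-/- cells Fnip1 was at 138 and 112 CPM after IgE DEX and at 283 and 204 CPM after IgE DNP DEX. The groups of Fnip1 did not overlap either.

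These were 2 of 7 tested members, against 12.6% of all 13305 genes. The calls rested on the IgE DEX libraries. Without PEP+/+ IgE DEX replicate 2 the adjusted p was 0.0938 for Tfe3 (0.43 on the log2 scale) and 0.079 for Fnip1 (0.70), and without PEP-/- IgE DEX replicate 2 it was 0.0888 (0.50) and 0.0749 (0.68). The call of Tfe3 also ended with no filter on low counts (adjusted p = 0.0779) and with only the compared conditions in the fit (adjusted p = 0.0803). DESeq2 called 3 of 7, adding Mitf, against 17.3% of all genes.

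Samples of one set deviated together from their condition means, so a fit with the set as a replicate block was made beside each test. With the block 4 of 7 members passed, against 37.6% of all genes. Tfe3 rose by 0.56 ± 0.09 (adjusted p = 0.000387, edgeR with block) and Fnip1 by 0.76 ± 0.11 (adjusted p = 8.55e-05). Flcn fell by 0.77 ± 0.10 on the log2 scale in that fit (adjusted p = 3.58e-05) and Mitf fell by 0.56 ± 0.11 (adjusted p = 0.00104). Leaving out any 1 library left all 4 of these calls in place in the blocked fit. Without the block the adjusted p was 0.0992 for Flcn and 0.0793 for Mitf, and with no filter on low counts and no block Flcn passed (-0.79, adjusted p = 0.00239, edgeR).

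Flcn was at 110 and 210 CPM in PEP+/+ IgE DEX and at 71.6 and 117 CPM in PEP+/+ IgE DNP DEX. PEP-/- cells had Flcn at 139 and 230 CPM after IgE DEX and at 84.9 and 123 CPM after IgE DNP DEX. Within each set the antigen library was lower in both genotypes, although the lettered libraries were higher than the numbered ones throughout. Mitf was at 156 and 123 CPM in PEP+/+ IgE DEX and at 92.2 and 81.2 CPM in PEP+/+ IgE DNP DEX. In PEP-/- cells Mitf was at 170 and 150 CPM after IgE DEX and at 121 and 113 CPM after IgE DNP DEX, so that its groups did not overlap. Fnip2 (0.07 ± 0.23), Rragc (-0.08 ± 0.16) and Rragd (0.41 ± 0.45) did not pass in either fit.

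Within 1 genotype none of the 7 members passed in PEP+/+ cells under DEX (0 called against 3.84% of all genes, 3 with an unadjusted p under 0.05, 0 by DESeq2 against 7.22%). In PEP-/- cells 0 passed against 3.98%, with 2 at an unadjusted p under 0.05, and DESeq2 called Fnip1 alone against 7.22%. With the block 4 passed in PEP+/+ cells, Mitf, Tfe3, Flcn and Fnip1, against 22.3% of all genes, and 3 in PEP-/- cells, Tfe3, Flcn and Fnip1, against 19.7%. The response of Fnip1 under DEX was 0.55 ± 0.25 in PEP+/+ and 0.96 ± 0.25 in PEP-/- cells, and its difference between genotypes of 0.41 ± 0.35 did not pass (adjusted p = 1, edgeR interaction). The same interaction was passed by 0 of 7 members in each of the 3 fits, with 0 at an unadjusted p under 0.05, and by 0% of all genes in each.

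**Figure D3:**
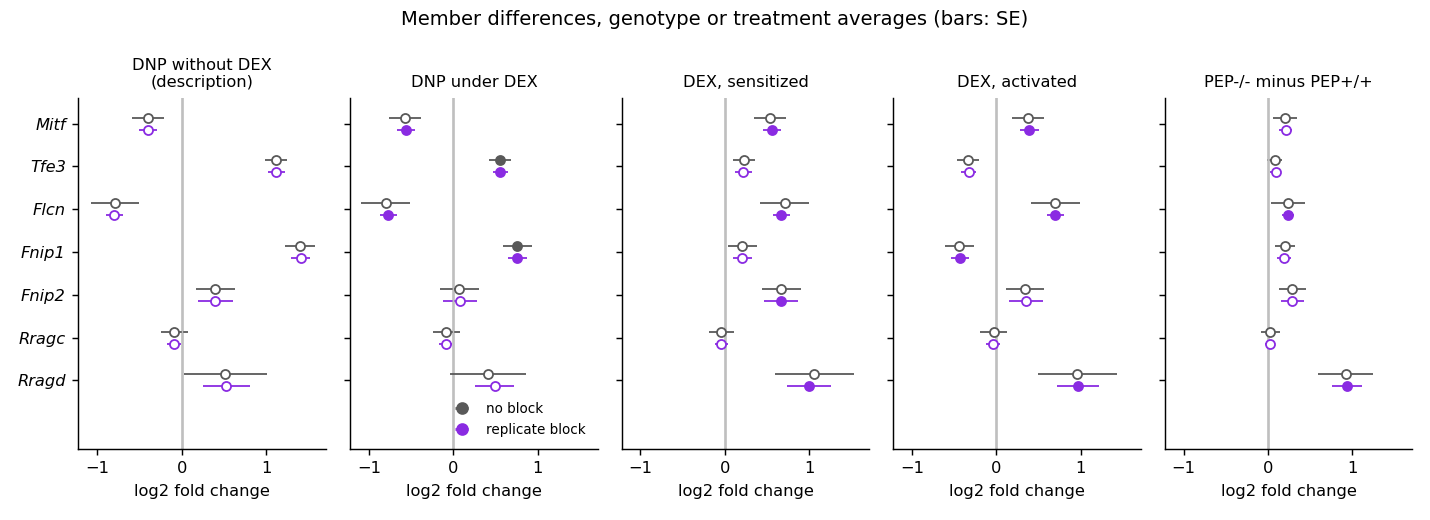
Log2 fold changes of 7 members in 5 comparisons with bars of 1 SE, in grey without and in violet with the replicate block. Filled points have an adjusted p under 0.05. The first panel, the comparison used to choose the set, has no test, nor has Tfe3 for DEX in sensitized or activated cells, drawn open. Tfe3 and Fnip1 lie to the right and Flcn and Mitf to the left of 0 in both antigen panels.

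DEX in sensitized cells left all 7 members short of the threshold without the block. Mitf, Flcn, Fnip2 and Rragd passed with it, and all 4 were higher with DEX. Mitf rose by 0.56 ± 0.11 on the log2 scale (adjusted p = 0.00123, edgeR with block), Flcn by 0.67 ± 0.10 (adjusted p = 0.000124), Fnip2 by 0.67 ± 0.20 (adjusted p = 0.0242) and Rragd by 1.00 ± 0.26 (adjusted p = 0.00896). The 4 IgE DEX libraries given above lay between 123 and 170 CPM for Mitf, and the 4 IgE libraries at 121, 71.8, 123 and 95.6 CPM. These groups did not overlap before rounding, but the highest IgE and the lowest IgE DEX library both rounded to 123 CPM. Fnip2 was at 34.9 and 24 CPM in PEP+/+ IgE and at 51.3 and 42 CPM in PEP+/+ IgE DEX. PEP-/- cells had Fnip2 at 36.6 and 29.5 CPM after IgE and at 64 and 40.8 CPM after IgE DEX, and its groups too did not overlap. Flcn was higher with DEX in 4 of 4 differences within a set, from 0.44 to 1.03, while its 8 libraries overlapped.

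Rragd, the weakly expressed paralog of Rragc, was at 1.1 and 0.434 CPM in PEP+/+ IgE and at 2.93 and 0.841 CPM in PEP+/+ IgE DEX. In PEP-/- cells Rragd was at 2.09 and 1.23 CPM after IgE and at 3.94 and 2.03 CPM after IgE DEX. Its counts were low, from 5 to 76 reads in a library. Tfe3 (0.23 ± 0.13), Fnip1 (0.21 ± 0.17) and Rragc (-0.04 ± 0.15) did not pass in either fit. For Tfe3 this is not read as a test, since the IgE libraries belong to the antigen comparison that chose the set. The value of Fnip1 rests on the same libraries.

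The count of 0 of 7 without the block stood against 9.37% of all genes, with 4 members at an unadjusted p under 0.05 (19.4% of all genes) and 0 by DESeq2 (12.5%). With the block 4 of 7 stood against 26.7%. Without PEP+/+ IgE DEX replicate 1 the block called 2, the adjusted p being 0.0923 for Fnip2 and 0.0792 for Rragd. Leaving out PEP-/- IgE DEX replicate 1, PEP+/+ IgE replicate 2 or PEP-/- IgE replicate 2 ended the call of Fnip2 in that fit (adjusted p = 0.172, 0.113 and 0.113). Without the block, no filter on low counts called 2, Flcn (adjusted p = 0.00876) and Fnip2 (adjusted p = 0.0294), and leaving out PEP+/+ IgE replicate 1 called 1. In single genotypes 0 members passed in PEP+/+ (3.18% of all genes) and 0 in PEP-/- cells (3.34%), with 0 at an unadjusted p under 0.05 and 0 by DESeq2 (6.04% and 6.16%) in both. With the block Mitf and Flcn passed in each genotype, against 15.6% and 14.7% of all genes.

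In activated cells DEX had no member past the threshold without the block and 5 with it, Tfe3 included, for which this is not read as a test. Mitf (0.39 ± 0.11, adjusted p = 0.0121, edgeR with block), Flcn (0.70 ± 0.10, adjusted p = 0.000103) and Rragd (0.97 ± 0.25, adjusted p = 0.00864) rose in that fit. Fnip1 fell by 0.43 ± 0.11 on the log2 scale (adjusted p = 0.00674). All 4 IgE DNP DEX libraries of Tfe3, at 81.1 to 87.4 CPM, lay below the 4 IgE DNP libraries at 94.4 to 110 CPM. Those of Fnip1 overlapped, at 160 to 283 and 231 to 321 CPM, with the IgE DNP DEX library lower in 4 of 4 differences within a set. The IgE DNP libraries are among those in which Tfe3 had been seen to rise, so its difference of -0.33 ± 0.09 in the blocked fit is a description, and the difference of Fnip1 rests on the same libraries. Flcn was at 71.6, 117, 84.9 and 123 CPM with DEX against 46.5, 64.5, 49.5 and 83.2 CPM without.

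Rragd was at 1.13 and 1.01 CPM in PEP+/+ IgE DNP and at 3.12 and 1.87 CPM in PEP+/+ IgE DNP DEX. PEP-/- cells had Rragd at 3.04 and 1.87 CPM after IgE DNP and at 5.24 and 2.85 CPM after IgE DNP DEX, higher with DEX in each of the 4 differences within a set. Fnip2 (0.34 ± 0.23) and Rragc (-0.03 ± 0.16) did not pass.

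The count without the block was 0 of 7 against 10.7% of all genes, with 3 at an unadjusted p under 0.05 (23.9% of all genes) and 0 by DESeq2 (14.6%). With the block it was 5 of 7 against 33.3%. Both the 3 and the 5 hold Tfe3, not read as a test, and Fnip1, which rests on the same libraries. Nothing is read from these counts. Without PEP+/+ IgE DNP replicate 1 the block called 3, without Tfe3 and Rragd (adjusted p = 0.0878 for Rragd). The call of Mitf ended without PEP+/+ IgE DNP replicate 2 (adjusted p = 0.0518) or PEP-/- IgE DNP DEX replicate 2 (adjusted p = 0.0551). Without the block, no filter on low counts called 1, Flcn (adjusted p = 0.00866). In single genotypes 0 members passed in PEP+/+ (3.03% of all genes) and 0 in PEP-/- cells (3.28%), with 1 at an unadjusted p under 0.05 in each and 0 by DESeq2 (6.33% and 6.3%). With the block 3 passed in PEP+/+ cells, Flcn, Fnip1 and Rragd, against 18.9%, and 2 in PEP-/- cells, Mitf and Flcn, against 18.1%. Neither the sensitized nor the activated response to DEX differed between genotypes for any of 7 members past the threshold (0 called, 0 at an unadjusted p under 0.05, 0 by DESeq2 and 0 with the block, against 0% of all genes in every fit of both interactions).

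For Tfe3 and Fnip1 the difference with DEX had opposite signs in sensitized and activated cells. Within a genotype and set, DEX went with a higher Tfe3 in 4 of 4 sensitized differences (0.08 to 0.39 on the log2 scale) and a lower one in 4 of 4 activated differences (-0.42 to -0.21). For Fnip1 the ranges were 0.10 to 0.28 and -1 to -0.09. Both signs rest on libraries of the antigen comparison that chose the set, IgE in sensitized and IgE DNP in activated cells. The difference between both states was -0.57 ± 0.19 for Tfe3 and -0.65 ± 0.25 for Fnip1, and it was not tested because it contains the antigen comparison that chose the set. For Flcn it was -0.01 ± 0.41, for Mitf -0.16 ± 0.27, for Fnip2 -0.32 ± 0.33, for Rragd -0.10 ± 0.66 and for Rragc 0.01 ± 0.22.

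**Figure D4:**
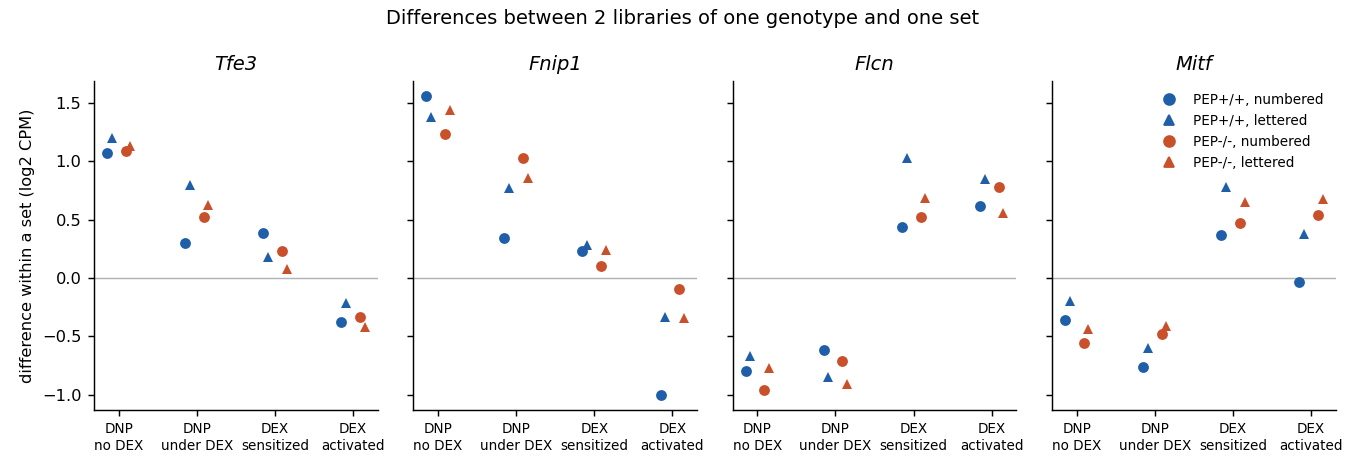
Differences in log2 CPM between 2 libraries of the same genotype and set, 4 per comparison, for Tfe3, Fnip1, Flcn and Mitf. Tfe3 and Fnip1 lie above 0 for DEX in sensitized and below 0 for DEX in activated cells, and Flcn lies below 0 for DNP and above 0 for DEX throughout.

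Between PEP-/- and PEP+/+ cells, averaged over treatments, 0 of 7 members passed without the block against 1.59% of all genes, with 1, Rragd, at an unadjusted p under 0.05 (14.2% of all genes) and 0 by DESeq2 (5.24%). Rragd was higher in PEP-/- cells by 0.92 ± 0.33 (adjusted p = 0.222, edgeR). With the block 2 of 7 passed, against 17.4% of all genes, namely Rragd, higher by 0.94 ± 0.18 (adjusted p = 0.00265), and Flcn, higher by 0.24 ± 0.07 (adjusted p = 0.0294). Both were higher in PEP-/- in 8 of 8 differences within a set and treatment, while the 8 PEP-/- libraries overlapped the 8 PEP+/+ ones for every member. The call of Flcn was fragile. It ended in the blocked fit when any 1 of 10 libraries was left out, the adjusted p then lying between 0.0507 and 0.0989, whereas that of Rragd held each time. Without PEP+/+ IgE DNP DEX replicate 2 the block called 5. Mitf (0.20 ± 0.14), Tfe3 (0.08 ± 0.09), Fnip1 (0.20 ± 0.12), Fnip2 (0.29 ± 0.16) and Rragc (0.03 ± 0.11) did not pass in either fit over all libraries.

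In single treatments 0 of 7 members passed after IgE, IgE DNP, IgE DEX or IgE DNP DEX, with 0 at an unadjusted p under 0.05 in each. The share of all genes called was 0.00752% in each of the 4 treatments. DESeq2 also called 0 members, against 0.225%, 0.331%, 0.128% and 0.015% of all genes in that order, and so did the block, against 1.69%, 1.86%, 0.564% and 0.0225%. DESeq2 gave Rragd no adjusted p after IgE, IgE DNP or IgE DEX, so it could not be called there by DESeq2.

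The numbered and lettered sets differed in several members. In the blocked fit the lettered libraries were higher in Flcn by 0.63 ± 0.07 and lower in Rragd by -0.93 ± 0.17, in Mitf by -0.34 ± 0.08, in Fnip1 by -0.28 ± 0.08, in Rragc by -0.28 ± 0.06 and in Tfe3 by -0.17 ± 0.07 (log2, lettered minus numbered). Fnip2 differed by -0.02 ± 0.15. What sets the sets apart was not given. Rragc varied with the set more than with any treatment, at 188 to 205 CPM in the numbered and 140 to 178 CPM in the lettered libraries.

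Over the 16 libraries Tfe3 and Fnip1 followed each other most closely among the members (Pearson's r = 0.96 of log2 CPM), and both ran against Flcn (r = -0.68 and -0.69). Mitf and Flcn had r = 0.53, and Fnip2 and Rragd r = 0.65. These values are descriptions, since the libraries fall into treatment groups and 2 sets. Among 9613 genes with a mean of at least 5 CPM, those most like Tfe3 were Nlrp3 (r = 0.98), which encodes the sensor of an inflammasome, Zc3h12c (r = 0.98), of a family of RNases that degrade messenger RNA, and Ell2 (r = 0.97), a transcription elongation factor. Those most like Fnip1 were Etv3, a transcriptional repressor, Rc3h1, which encodes the RNA-binding protein roquin-1, and again Zc3h12c (r = 0.98 each). Flcn was most like Iffo1 (r = 0.97), Tbc1d8 (r = 0.97) and Sipa1 (r = 0.96), and Mitf most like Zfp617 (r = 0.95), Zfp729a (r = 0.94) and Cyth3 (r = 0.94). For Fnip2 these were Npc1 (r = 0.91), whose product exports cholesterol from lysosomes, Cipc (r = 0.89) and Kansl1 (r = 0.89). For Rragc they were Nipsnap2 (r = 0.96), Surf4 (r = 0.96) and Ext2 (r = 0.95), and for Rragd Anpep (r = 0.93), Prcp (r = 0.93) and Atp8a2 (r = 0.92).

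Genes around the members were taken in 5 lists, and each list's calls are given in the average over genotypes without the block and, after it, with the block. The first held 15 genes of the Rag and mTORC1 machinery, all tested. DNP under DEX called 5 of them. Rheb, the GTPase that switches mTORC1 on, rose by 0.83 ± 0.21 (adjusted p = 0.0269, edgeR), and so did Lamtor3, of the Ragulator anchor of the Rag proteins, by 0.55 ± 0.14 (adjusted p = 0.0229). Mlst8 and Mtor, subunits of the kinase complex, fell by 1.02 ± 0.17 and 0.70 ± 0.14 on the log2 scale (adjusted p = 0.00287 and 0.00766), and Tsc1, of the complex that restrains Rheb, fell by 0.63 ± 0.15 (adjusted p = 0.0199). The median of the list was -0.15, against -0.02 over all genes, and the block called 3 up and 4 down. DEX called none of the 15 in sensitized or activated cells (2 at an unadjusted p under 0.05 in each, 0 by DESeq2), and 3 with the block in each, 1 up and 2 down and then 0 up and 3 down. Genotype called 0 (1 at an unadjusted p under 0.05, 0 by DESeq2) and, with the block, Tsc2 alone, higher by 0.26.

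The second list held 16 genes of amino acid sensing (GATOR, KICSTOR, CASTOR and sestrins), all tested. DEX called 3 genes in each state, Sesn1, Sesn3 and Castor2. Sesn1, a leucine-responsive restraint on mTORC1, rose by 1.81 ± 0.18 in sensitized (adjusted p = 6.36e-05) and 1.93 ± 0.18 in activated cells (adjusted p = 4.35e-05, edgeR). Its paralog Sesn3 fell by 1.52 ± 0.28 and 1.62 ± 0.28 on the log2 scale (adjusted p = 0.0049 and 0.00391), and Castor2, of the arginine sensor family, fell by 1.24 ± 0.18 and 1.56 ± 0.18 (adjusted p = 0.000984 and 0.000247). DNP under DEX called Sesn2 alone, which fell by 1.53 ± 0.14 (adjusted p = 6.41e-05). List medians were -0.11 and -0.04 for DEX in sensitized and activated cells, against 0 and -0.01 over all genes, and -0.29 for DNP under DEX, against -0.02. With the block the calls were 4 up and 3 down, 2 up and 3 down, and 1 up and 7 down. Genotype called 0 (2 at an unadjusted p under 0.05, 0 by DESeq2) and, with the block, Sec13 alone, lower by -0.23.

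The third list held 20 regulators of MiT factors, among them calcineurin subunits, kinases, 14-3-3 genes and partners of MITF in mast cells. DEX in sensitized cells called 2 up and 3 down. The 14-3-3 genes Ywhah and Ywhab rose by 1.09 ± 0.18 (adjusted p = 0.00247, edgeR) and 0.70 ± 0.13 (adjusted p = 0.00452), while the other 14-3-3 gene called, Ywhaq, fell by 0.48 ± 0.11 (adjusted p = 0.0155). Ppp3ca, a catalytic subunit of calcineurin, fell by 0.54 ± 0.11 (adjusted p = 0.00778), and Nudt2, whose enzyme degrades the dinucleotide Ap4A that frees MITF from its inhibitor HINT1, fell by 0.94 ± 0.17 (adjusted p = 0.00433). In activated cells DEX called 2 up and 2 down, Ywhah (1.21 ± 0.18, adjusted p = 0.00132) and Ywhab (0.56 ± 0.13, adjusted p = 0.0153) against Ppp3ca (-0.50 ± 0.11, adjusted p = 0.012) and Nudt2 (-0.78 ± 0.17, adjusted p = 0.0133). DNP under DEX called 3 up, all 14-3-3 genes, Ywhaz (0.62 ± 0.11, adjusted p = 0.00321), Ywhah (0.78 ± 0.18, adjusted p = 0.0146) and Ywhaq (0.41 ± 0.11, adjusted p = 0.0287). Medians of the list were 0.07, -0.10 and 0.04, against 0, -0.01 and -0.02 over all genes. With the block the calls were 5 up and 4 down, 2 up and 7 down, and 7 up and 2 down. Genotype called 0 (2 at an unadjusted p under 0.05, 0 by DESeq2) and, with the block, Akt1 and Hint1, lower by -0.22 and -0.32.

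The fourth list held 26 lysosome and autophagy genes known as targets of TFEB or TFE3, of which 25 were tested. DNP under DEX called 4 up and 1 down. Sqstm1, the autophagy receptor p62, rose by 1.60 ± 0.15 (adjusted p = 6.41e-05, edgeR), the lysosomal galactosidase gene Gla by 1.12 ± 0.19 (adjusted p = 0.00292), Gabarapl1, of the autophagosome, by 0.76 ± 0.14 (adjusted p = 0.00428) and Atp6v1h, of the proton pump, by 0.60 ± 0.15 (adjusted p = 0.0217). Sgsh, a lysosomal sulfatase gene, fell by 0.59 ± 0.16 (adjusted p = 0.0321). DEX called Psap, which encodes the precursor of saposins, up in sensitized cells (0.58 ± 0.11, adjusted p = 0.00504). In activated cells it called 4 up and 0 down, among them Psap (0.61 ± 0.11, adjusted p = 0.0038), Hexa (0.64 ± 0.17, adjusted p = 0.0321) and Vps18 (0.45 ± 0.12, adjusted p = 0.0419). Medians were 0.09 for DNP under DEX, against -0.02 over all genes, and 0.20 and 0.26 for DEX in sensitized and activated cells, against 0 and -0.01. The block called 8 up and 4 down for DNP, 8 up and 0 down for DEX in sensitized and 12 up and 0 down for DEX in activated cells. Genotype called 0 (4 at an unadjusted p under 0.05, 1 by DESeq2) and 5 up with the block, among them Gpnmb, Sgsh, Tpp1 and Wipi1. Gpnmb was near the floor, with a mean of 0.447 CPM.

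The fifth list held 14 genes known as MITF targets in mast cells or melanocytes, of which 13 were tested. Hdc, the histamine-forming enzyme and also one of the mast cell markers above, rose with DEX in sensitized (2.22 ± 0.23, adjusted p = 0.000104, edgeR) and activated cells (1.21 ± 0.22, adjusted p = 0.00519) and with DNP under DEX (2.12 ± 0.23, adjusted p = 0.00014). Bcl2, a survival gene, rose with DEX by 2.40 ± 0.25 (adjusted p = 9.57e-05) and 2.15 ± 0.24 (adjusted p = 0.000214). Gzmb, which encodes granzyme B, fell with DEX by 2.00 ± 0.36 and 1.58 ± 0.36 on the log2 scale (adjusted p = 0.00452 and 0.0159) and rose with DNP under DEX by 1.36 ± 0.35 (adjusted p = 0.0284). Cadm1, an adhesion molecule of mast cells, fell with DEX by 1.35 ± 0.19 and 0.94 ± 0.19 (adjusted p = 0.001 and 0.00959) and was the only list gene called between genotypes without the block, higher in PEP-/- cells by 0.91 ± 0.14 (adjusted p = 0.0109). Acp5, an acid phosphatase, rose with DEX in activated cells by 1.78 ± 0.50 (adjusted p = 0.0438).

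In counts, these 13 gave 3 up and 2 down for DEX in each state and 3 up and 0 down for DNP under DEX, and with the block 5 up and 4 down, 3 up and 4 down, and 3 up and 3 down. Their medians were 0.22 and 0.06 for DEX, against 0 and -0.01 over all genes, and 0.24 for DNP under DEX, against -0.02. Genotype gave 1 up and 0 down, and 6 up and 2 down with the block. The shares of all genes called in these comparisons are those given for the members. Of the named list genes, the calls of Tsc1, Lamtor3 and Ywhaq for DNP under DEX and of Ppp3ca, Nudt2 and Vps18 for DEX in activated cells ended both with no filter on low counts and with only the compared conditions in the fit. Rheb, Ywhaq in sensitized cells, Sgsh, Gzmb in sensitized cells, Acp5 and the genes called only with the block were named after their values were seen, to complete counts of 5 or fewer or of the blocked fit.

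**Figure D5:**
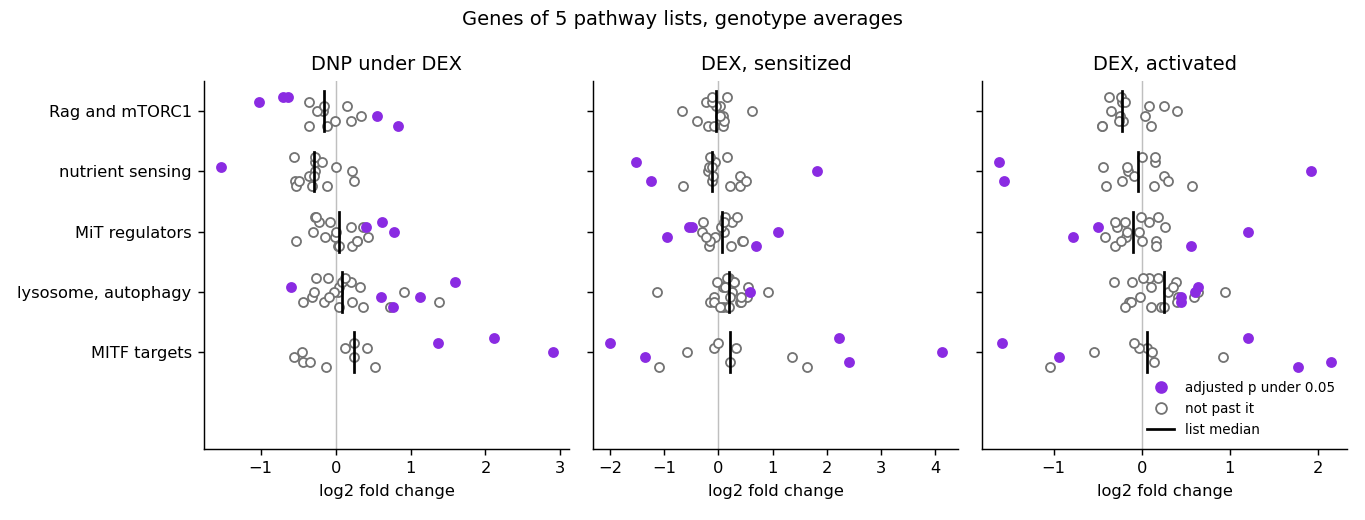
Log2 fold changes of the tested genes of 5 lists in 3 comparisons, averaged over genotypes, with filled points for an adjusted p under 0.05 in the fit without the block and a line at each list's median. DNP under DEX calls 4 lysosome and autophagy genes up and 1 down, and 3 MITF targets up and 0 down.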

How the data were processed

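RNA-seq was measured in 16 BMMC samples. Per the labels and the study's methods, RNA was extracted with a column kit, libraries were made with a stranded mRNA kit, and the authors aligned reads to GRCm38 with TopHat2 and counted them per gene with HTSeq; the submitters' processing notes also name bcl2fastq and DESeq2. The deposited values are whole-number raw counts per gene, neither normalized nor filtered; the 5 rows of unassigned reads were left out of library sizes and tests, and reads without a gene or with an ambiguous one made up 9.35 to 19.05% of the reads that were counted or fell in these classes. Reads with more than 1 alignment were set aside by the counting. In proportion to reads counted on genes, this class was smallest in PEP+/+ IgE replicate 1 (3494347 beside 11556474). It was largest in PEP-/- IgE DNP DEX replicate 2 (9601941 beside 12810922), and its part in the treatment differences was not tested. The strand setting of the counting was not stated in the sources used here. Gene names came from GENCODE M21 (37607 of 39179 identifiers, 95.99%), promoters from RefSeq (GRCm38.p6).

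Counts were scaled by TMM. The test was glmQLFTest after glmQLFit (edgeR 4.0.16, R 4.3.3), with filterByExpr at a minimum count of 10, 8 condition means over all 16 samples, 8 residual degrees of freedom and Benjamini-Hochberg adjustment over 13305 genes, called at an adjusted p under 0.05. The SE of a log2 fold change was its size divided by the square root of its F. CPM use TMM-scaled totals; differences within a set and correlations use log2 CPM with a prior count of 2. The sets counted as paired if same-set deviations from condition means correlated above 0.1 in every pair of conditions; over 28 pairs r lay between 0.453 and 0.799 (median 0.718), the pairing coming from the sample titles. The genotype interaction for DNP without DEX was fitted but is not read as a test, since the choice of members used those libraries. The block adds the set as a term (7 residual degrees of freedom). Replicates differed by far more than sampling noise (chi-square per degree of freedom from 50 to 149).

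Named were all 9 members, Ptpn22, Tsc22d3 and Fkbp5 as checks, up to 4 called genes per list and average comparison by smallest adjusted p, and the 3 genes most correlated with each member; some list genes are counted but not reported here by name. Members and lists were chosen with earlier results of these data known. Alternatives were DESeq2 1.42.0, its size factors in edgeR, no filter (at least 1 count), a stricter filter (10 counts or more in all samples), a fit of the compared conditions alone, the block, each library left out and, added after seeing the data, each library left out with the block.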

Additional observations from a re-analysis of the deposited data

Results flagged for a closer look

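For Tfe3 and Fnip1 the difference with DEX had opposite signs in sensitized and activated BMMCs between libraries of one genotype and set (above 0 in 4 of 4 and below 0 in 4 of 4). In sensitized cells neither gene passed the threshold (edgeR adjusted p = 0.41 for Tfe3 and 0.644 for Fnip1, 0.102 and 0.175 with the replicate block). In activated cells neither passed without the block and both did with it. Neither state is read as a test for Tfe3. The IgE and IgE DNP libraries made up the antigen comparison used for the choice, and the values of Fnip1 rest on them too. The difference with DEX in activated minus that in sensitized cells was -0.57 on the log2 scale for Tfe3 and -0.65 for Fnip1. This difference was not tested, because it holds the antigen comparison from which the genes were chosen.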

How the results depend on the processing

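Counts of members past the threshold depended most on the replicate block. With it they became 4, 2 and 2 (from 0) for DEX in sensitized cells on average, in PEP+/+ and in PEP-/-, 5, 3 and 2 (from 0) for DEX in activated cells in the same order, 4 (from 2), 4 and 3 (from 0) for DNP under DEX, and 2 (from 0) for the average genotype difference, while the block changed none of the other 8 counts. No filter on low counts gave 2 for DEX in sensitized, 1 for DEX in activated cells and 1 for DNP under DEX in PEP-/-; DESeq2 and the stricter filter of 10 counts in all samples each gave 1 for the last. With only the compared conditions DNP under DEX gave 1, with fewer samples in the fit; that fit does not exist for the average genotype difference, which uses all conditions. DESeq2 size factors in edgeR moved no count. With 1 library left out the count was 0 to 2 for DNP under DEX and 0 to 1 for DEX in sensitized cells, and 0 for the other tests without the block; the number of the 7 tested members whose average log2 difference with DNP without DEX was above 0, a description, stayed at 4 each time. In the blocked fit the count of calls was 4 to 5 for DNP under DEX, 2 to 5 for DEX in sensitized, 3 to 6 for DEX in activated cells, and 1 to 5 for the average genotype difference. These counts hold Tfe3 wherever it passed, which is not read as a test for DEX in sensitized or activated cells. For DNP under DEX its calls are not independent of the choice of the set. No called gene changed direction under any alternative. Apart from the block, which brought 29 of 197 gene values past the threshold and took none below it, 5 of 197 gained and 11 lost their calls without the filter and 10 of 182 lost them with only the compared conditions. With a library left out, 61 of 1360 lost and 1 gained a call without the block, and 21 of 280 lost and 7 gained one with it. Of the 20 list counts the block moved 18 by over 1.5 times. The cause of these shifts was not tested. Rragd, Tfeb and Tfec are limited by their few reads.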
